A study of Mus musculus with 8 samples.

Results

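The genes described here are the prolactin receptor *Prlr* and 6 genes that belong to growth-hormone and prolactin signalling or to the growth of β-cells: *Ghr*, *Ccnd2*, *Socs2*, *Cish*, *Tph1* and *Tph2*. They were chosen by name, and all 7 are among the 19945 rows of the deposited count table. The islets came from wild-type mice, 10 days past the last dose of FAKi (PF-562271, an inhibitor of focal adhesion kinase given by oral gavage) or of vehicle, and were analysed by droplet-based scRNA-seq. The islets of several mice were pooled in each library. The study's methods state that young mice of both sexes were used, and the labels do not give the age or sex of the mice in these pools. There was 1 library per condition, deposited as 4 sequencing lanes each, so neither lanes nor cells are replicates, no test between conditions was possible, and all intervals below are 95% intervals that cover counting error only. Whatever differed between the 2 pools of mice, other than treatment, cannot be told apart from the treatment.

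PRLR and GHR are cytokine-type receptors without an enzyme of their own. When prolactin, placental lactogen or growth hormone binds, the associated kinase JAK2 phosphorylates STAT5, which enters the nucleus and activates target genes. *Socs2* and *Cish* are classical STAT5 targets whose products dampen the same receptors. In rodent pregnancy this pathway drives β-cell replication, with cyclin D2 (*Ccnd2*) as the main D-type cyclin of the β-cell, and strongly induces *Tph1*, the enzyme that starts serotonin synthesis. *Tph2* encodes the neuronal form of that enzyme.

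In the GRCm38 annotation all 7 are protein-coding genes. *Prlr* lies on the plus strand at chr15:10177238-10349180, and *Ghr* on the minus strand of the same chromosome at chr15:3317760-3583492. *Ccnd2* is at chr6:127125162-127152193 (minus), *Socs2* at chr10:95385362-95417180 (minus), *Cish* at chr9:107296026-107302784 (plus), *Tph1* at chr7:46644641-46672537 (minus) and *Tph2* at chr10:115078641-115185022 (minus). A gene model on the same strand, *Gm21973*, overlaps *Prlr* and was not analysed here. Genes on the opposite strand overlap *Ccnd2* (*Gm43126* and *9330179D12Rik*) and *Cish* (*Gm17040* and *Gm17041*), and how the counting used the strand was not given in the sources used here.

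The STAT5 recognition motif TTCNNNGAA, which reads the same on both strands, was looked for in the RefSeq promoters of GRCm38.p6, each 250 bases before and 50 after a start site. Of the 7 members, 5 had promoters in this set, 9 promoters in all. A match was found in 2 of them, which are shown because *Cish* is the textbook STAT5 target and *Prlr* the receptor upstream of it. The motif occurs at least once in 8.30% of all 32851 promoters and at least 2 times in 0.457%. The *Cish* promoter (chr9:107296409-107296708, plus strand) holds 2 matches, which begin 0 and 11 bases after the start site. The *Prlr* promoter at chr15:10223656-10223955 (plus strand), 1 of 3 *Prlr* promoters, holds 1 match that begins at position -110. Matches are in capitals.
Cish: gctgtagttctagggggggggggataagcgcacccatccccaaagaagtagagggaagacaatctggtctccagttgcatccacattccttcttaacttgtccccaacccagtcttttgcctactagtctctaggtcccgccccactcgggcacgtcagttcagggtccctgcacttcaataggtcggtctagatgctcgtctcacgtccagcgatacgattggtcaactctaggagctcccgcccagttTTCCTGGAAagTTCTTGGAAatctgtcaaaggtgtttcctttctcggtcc
Prlr: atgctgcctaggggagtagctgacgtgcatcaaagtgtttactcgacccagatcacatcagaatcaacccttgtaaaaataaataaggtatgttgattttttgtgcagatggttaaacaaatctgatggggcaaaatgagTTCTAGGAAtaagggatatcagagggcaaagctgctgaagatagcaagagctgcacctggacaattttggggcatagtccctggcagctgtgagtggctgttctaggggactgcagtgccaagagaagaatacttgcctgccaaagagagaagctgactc
A match is a description of the letters, and no binding was measured in these samples.

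Levels are given as CPM, that is, UMIs of the gene scaled to the total UMIs of the class and library, over 6959 cells in all. The β-cells had been annotated in 3 clusters numbered 0, 1 and 10, hereafter β0, β1 and β10. The vehicle library held 650, 305 and 121 of these cells and the FAKi library 675, 546 and 115. Marker lists of β-, α-, δ-, ductal, endothelial, macrophage, T and B cells each had their highest summed level in the class of that name in both libraries, and those of acinar and mesenchymal cells in acinar cluster 2 and fibroblasts. *Ppy*, the pancreatic polypeptide gene, was also highest in the class named δ-cells, at 144939 CPM with vehicle and 141153 with FAKi, above the δ markers of that class at 109122 and 107298 CPM, so values for δ-cells are those of a class with both kinds of marker. Median depth was 34677 UMIs per vehicle and 34237 per FAKi cell in β0, 20070 and 16908 in β1, and 24960 and 26713 in β10. The median share of mitochondrial counts in β-cells was 4.06% (vehicle) and 3.92% (FAKi), and 4 cell barcodes occurred in both libraries. β1 held more RNA of acinar cells than the other β-cell clusters, with acinar markers at 2748 CPM (vehicle) and 2271 CPM (FAKi) against 50.02 and 95.6 CPM in β0.

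*Prlr* was a β-cell transcript in these islets, and it was lower in the FAKi library in every β-cell cluster. Annotated β-cells held 95.2% of all *Prlr* UMIs with vehicle and 96.3% with FAKi. Over all β-cells its level was 911 CPM (901 to 922) with vehicle and 615 CPM (607 to 623) with FAKi, a ratio of 0.675 (0.663 to 0.686), or 1.48-fold lower. In β0 it was 1012 and 684 CPM, in β1 775 and 529 CPM, and in β10 534 and 374 CPM. The corresponding FAKi-to-vehicle ratios were 0.676 (0.663 to 0.690), 0.682 (0.658 to 0.708) and 0.700 (0.650 to 0.754), whose intervals overlap.

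The difference was seen across the cells. To compare cells at 1 depth, each β-cell was thinned to 5000 UMIs, which left out 57 vehicle and 110 FAKi cells that were shallower. In β0 the mean was then 5.16 *Prlr* UMIs per cell with vehicle and 3.25 with FAKi, and the median was 5 and 3. The means were 4.32 and 2.81 in β1, and 2.72 and 1.89 in β10. The share of β0 cells with at least 1 *Prlr* UMI was 97.8% (96.4 to 98.8) with vehicle and 92.4% (90.2 to 94.3) with FAKi. Without thinning all 650 vehicle and all 675 FAKi cells of β0 had a *Prlr* UMI. The distribution of *Prlr* UMIs per cell lay further left in the FAKi library in each cluster, and the distributions overlapped broadly.

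**Figure D1:**
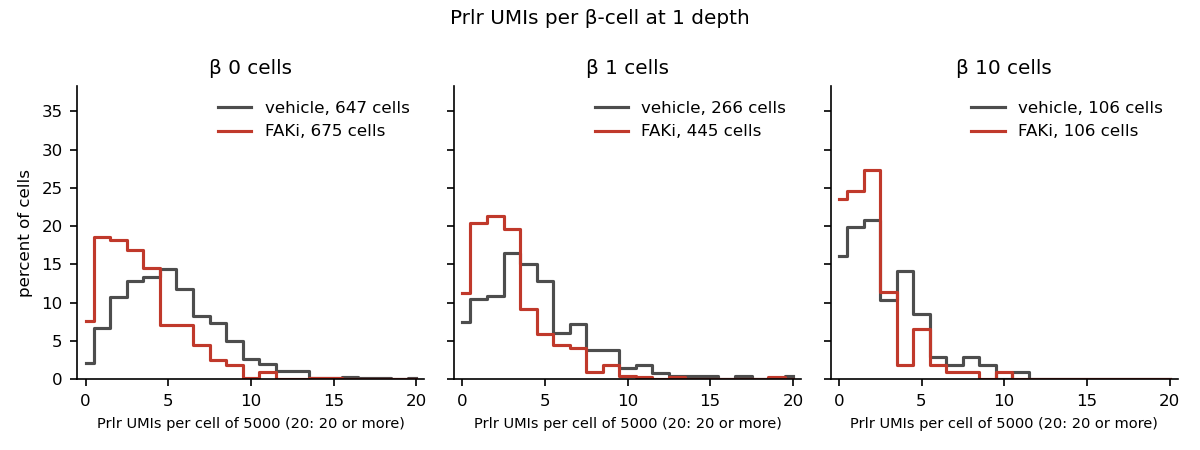
*Prlr* UMIs per β-cell (x axis) after thinning each cell to 5000 UMIs, as percent of the cells of a cluster and library (y axis), with vehicle in grey and FAKi in red. The FAKi curve lies to the left of the vehicle curve in β0 (mean 3.25 against 5.16), β1 (2.81 against 4.32) and β10 (1.89 against 2.72).

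With 1 library per condition, a gene was counted as past the fold when its CPM ratio exceeded 1.5 in either direction, and a minimum of 100 UMIs over both sides of the comparison was required. Over all β-cells 4.31% of 11059 genes were past the fold, 134 higher and 343 lower with FAKi. Of the 6 members with enough UMIs, 1 was past it, *Tph2*, which was lower. *Prlr*, at 1.48-fold, lay just inside the limit, and 202 of the 11059 genes (1.83%) had a lower log2 ratio (pseudocount 1 CPM). The percent past the fold was 4.56 in β0, 4.47 in β1 and 4.35 in β10, and none of the 5 members counted in each of those was among them. In cells thinned to 5000 UMIs the *Prlr* ratio over all β-cells was 0.634, which is past the fold.

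**Figure D2:**
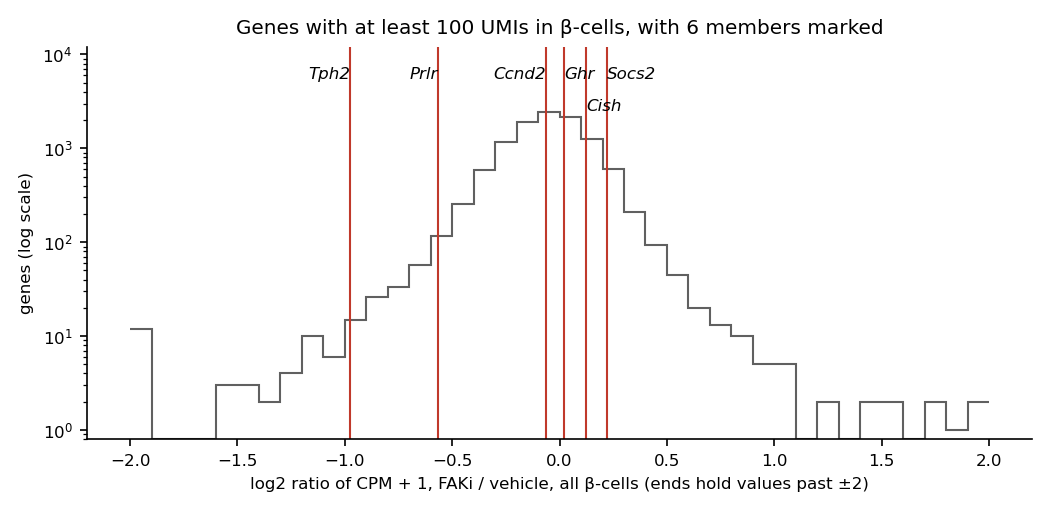
Number of genes (y axis, log scale) by log2 ratio of FAKi over vehicle in all β-cells (x axis, CPM with a pseudocount of 1) for the 11059 genes with at least 100 UMIs, with red lines at the 6 members among them. *Tph2* and *Prlr* lie in the lower tail at -0.98 and -0.57, and the other 4 lie between -0.06 and 0.22.

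The other receptor, *Ghr*, differed between the libraries by less than its counting interval over all β-cells. It was at 79.9 CPM (76.9 to 83.0) with vehicle and 81.1 CPM (78.3 to 84.0) with FAKi, a ratio of 1.01 (0.963 to 1.07). By cluster the ratios were 1.01 in β0, 1.07 in β1 and 0.996 in β10, all with intervals that include 1. At 5000 UMIs per cell the ratio over all β-cells was 0.903, outside the interval at full depth, and that of β10 was 0.604 (106 cells in each library).

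The STAT5 target genes *Socs2* and *Cish* both had FAKi-to-vehicle ratios above 1 in every β-cell cluster at full depth. *Socs2* was at 49.5 CPM (47.1 to 51.9) with vehicle and 57.8 CPM (55.4 to 60.3) with FAKi, a ratio of 1.17 (1.10 to 1.25). Its ratio was 1.16 (1.08 to 1.26) in β0, 1.13 (0.985 to 1.29) in β1 and 1.39 (1.12 to 1.72) in β10. *Cish* was at 42.4 CPM (40.2 to 44.6) and 46.2 CPM (44.1 to 48.4), a ratio of 1.09 (1.02 to 1.17). By cluster it was 1.03 (0.95 to 1.13) in β0, 1.26 (1.07 to 1.47) in β1 and 1.31 (1.03 to 1.66) in β10, and these intervals overlap. After thinning to 5000 UMIs the *Cish* ratio was 0.979 over all β-cells and 0.818 in β1, in the other direction, while that of *Socs2* stayed above 1 under every alternative run, at 1.17 to 1.22.

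*Ccnd2* differed little between the libraries. Its level was 798 CPM (788 to 808) with vehicle and 763 CPM (754.5 to 772) with FAKi, a ratio of 0.957 (0.941 to 0.973). The ratio was 0.957 in β0, 0.969 in β1 and 0.920 in β10, and that of β1 was above 1 (1.01 to 1.03) under 3 alternatives. Thinned to 5000 UMIs, 96.8% of vehicle and 95.9% of FAKi β0 cells had a *Ccnd2* UMI, with means of 4.20 and 4.05.

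Both tryptophan hydroxylases were near the limit of detection, and both had fewer UMIs in the FAKi library. In β-cells *Tph1* had 51 UMIs with vehicle and 28 with FAKi, a CPM ratio of 0.476 (0.289 to 0.769). Its 79 UMIs are under the minimum of 100, so it was not counted among the members tested against the fold. A *Tph1* UMI was found in 41 of 1076 vehicle β-cells (3.81%) and in 19 of 1336 FAKi β-cells (1.42%). *Tph2* had 80 and 28 UMIs, a ratio of 0.304 (0.190 to 0.472), and was found in 71 (6.60%) and 26 (1.95%) cells. By cluster *Tph2* had 56 and 19 UMIs in β0, 15 and 5 in β1, and 9 and 4 in β10, for vehicle and FAKi. Endothelial cells, which should lack both genes, had 1 *Tph2* UMI with vehicle and no other UMI of either gene, at median depths of 5752 and 4836 UMIs.

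**Figure D3:**
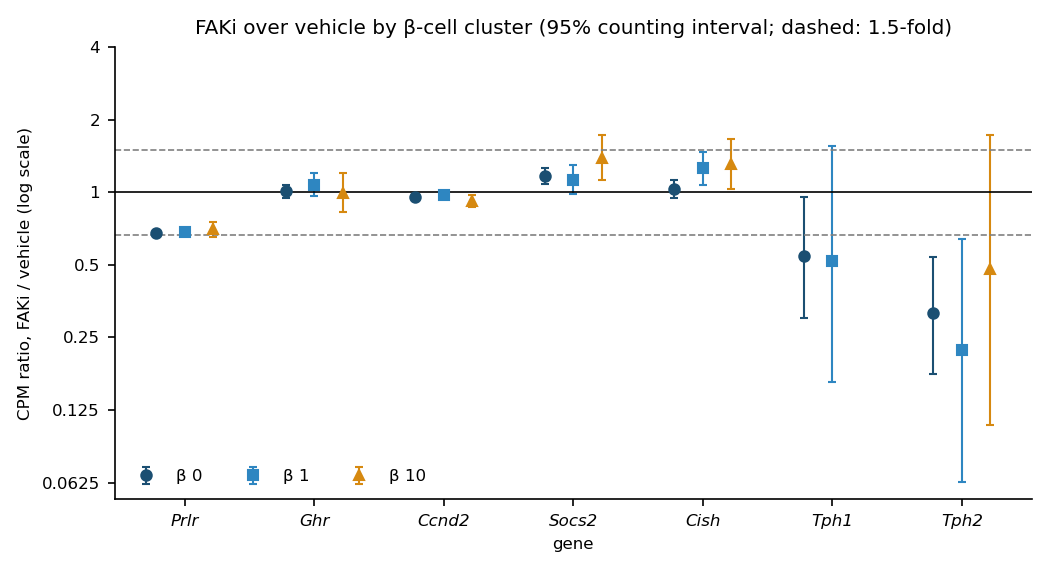
CPM ratio of FAKi over vehicle (y axis, log scale) for each member (x axis) in β0 (circles), β1 (squares) and β10 (triangles), with 95% counting intervals and dashed lines at 1.5-fold. *Prlr* lies between 0.676 and 0.700 in the 3 clusters and *Ccnd2* between 0.920 and 0.969, and *Tph1* in β10 is left out because it had 0 UMIs with FAKi and 6 with vehicle.

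Among the β-cell clusters, *Prlr* was highest in β0 and lowest in β10 in both libraries. The clusters had been drawn on these cells, so these ratios describe them. β10 held 0.528 times (0.503 to 0.553) the *Prlr* level of β0 in the vehicle library and 0.546 times (0.515 to 0.580) in the FAKi library. These were the only values past the fold among the 5 members counted in each library, against 13.6% of all genes with vehicle and 15.8% with FAKi. β1 held 0.766 times (0.744 to 0.788) and 0.773 times (0.750 to 0.796) the level of β0, and no member was past the fold there, against 4.58% and 3.54% of all genes. *Ccnd2* followed the same order with smaller steps, at 0.815 and 0.783 of β0 in β10, and 0.925 and 0.937 in β1. Insulin transcripts (*Ins1* and *Ins2*) were also lower in β10, at 470966 and 463994 CPM against 563536 and 568000 CPM in β0. β10 held more RNA of markers of other endocrine cells. Its α markers were at 10358 CPM (vehicle) and 12034 CPM (FAKi) against 96.2 and 214 in β0, its δ markers at 7027 and 8483 against 34.3 and 73.2, and *Ppy* at 15096 and 12054 against 57.5 and 79.0. The part of these transcripts in the lower *Prlr* level of β10 was not tested.

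The share of UMIs held by cells other than β-cells differed among the members. β-cells held 98.1% (vehicle) and 90.3% (FAKi) of *Tph1* UMIs, with 1 and 3 UMIs outside them, and 87.9% and 80% of *Tph2* UMIs. For *Ccnd2* the share was 74.0% and 78.2%, and for *Socs2* 52.9% and 75.4%. It was lowest for *Socs2* with vehicle and for *Ghr* with FAKi, at 75.0%. The vehicle library held 543 endothelial cells and the FAKi library 269. *Ccnd2* was also high in the other endocrine cells, at 625 (vehicle) and 603 CPM (FAKi) in α-cells and 542 and 445 CPM in δ-cells. *Ghr* was at 81.4 and 77.4 CPM in δ-cells and at 85.8 and 92.4 CPM in fibroblasts, which did not differ from β0 (84.0 and 84.6 CPM) beyond their intervals, and at 51.7 and 50.2 CPM in α-cells. *Socs2* was highest in endothelial cells, at 162 CPM (149 to 175) and 113 CPM (96.8 to 131). Next came pericytes at 86.1 CPM (66.5 to 109) with vehicle and 101 CPM (65.2 to 149) with FAKi, and in the FAKi library the intervals of these 2 classes overlap. *Cish* was highest in ductal cells, at 84.0 CPM (77.0 to 91.5) and 67.7 CPM (57.2 to 79.5), and with FAKi that interval overlaps the one of β10 at 51.3 CPM (43.7 to 59.9).

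**Figure D4:**
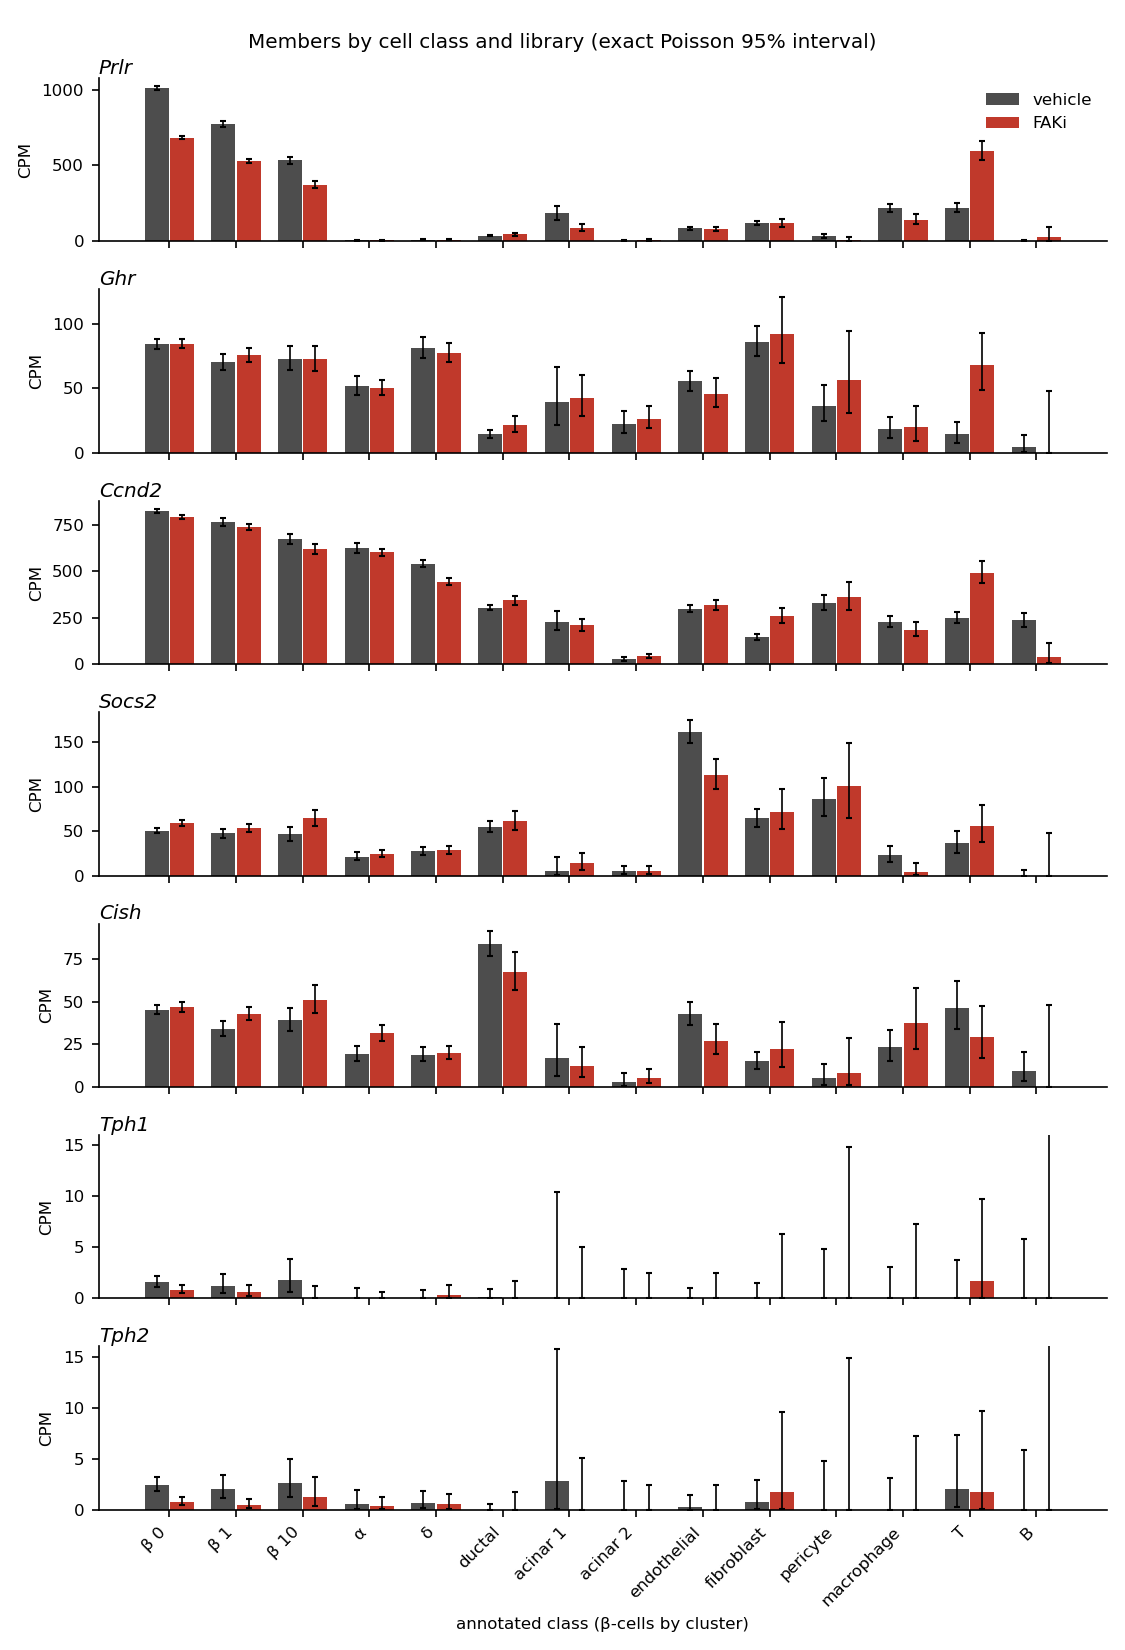
CPM of each member (y axis, 1 panel per gene, each with its own scale) by annotated class (x axis, β-cells by cluster) for vehicle (grey) and FAKi (red), with exact Poisson 95% intervals. *Prlr* is highest in β0 of both libraries. The 28 T cells of the FAKi library are at 597 CPM, with a *Prlr* UMI in 12 of them. *Socs2* is highest in endothelial cells at 162 and 113 CPM, and *Cish* in ductal cells at 84.0 and 67.7 CPM. The interval of the 9 FAKi B cells runs past the top of the *Tph1* and *Tph2* panels.

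Among α-, δ-, ductal and endothelial cells the FAKi-to-vehicle ratio passed the fold for 1 member in α-cells and 1 in endothelial cells. *Cish* was 1.64 times (1.25 to 2.18) as high with FAKi in α-cells (19.3 against 31.6 CPM), where 4.76% of all genes were past the fold and 4 members were counted. In endothelial cells *Cish* was at 42.8 and 27.3 CPM, a ratio of 0.637 (0.441 to 0.902), with 9.18% of all genes past the fold and 5 members counted. *Socs2* was also lower there, at 0.700 (0.587 to 0.831). No member passed the fold in δ-cells (3.88% of all genes) or ductal cells (8.16%), where 5 members were counted in each. In the remaining classes ratios rest on few cells or UMIs and are given as values. *Prlr* was at 0.495 (0.347 to 0.707) in acinar cluster 1 and at 0.655 (0.498 to 0.852) in macrophages, where it was 1.09 by the mean of each cell's CPM and 1.00 in cells under 5% mitochondrial counts. Of all genes 20% and 17% were past the fold in these 2 classes. In acinar cluster 1 a single droplet held 29 of the 65 vehicle *Prlr* UMIs. In macrophages a single droplet held 90 of 263 with vehicle and 55 of 73 with FAKi. *Ccnd2* was at 1.77 (1.46 to 2.15) in fibroblasts, where 16.5% of all genes were past the fold. The β markers of the fibroblasts summed to 66918 CPM with vehicle and 133247 with FAKi. β-cell RNA in proportion to the insulin UMIs of the fibroblasts would bring 223 of their 369 *Ccnd2* UMIs with vehicle and 99.5 of 152 with FAKi. In T cells, 28 with FAKi, *Prlr* was at 2.72 and *Ccnd2* at 1.97, and 56.3% of all genes were past the fold. Insulin transcripts in this class were at 76456 CPM with vehicle and 425630 with FAKi, and T-cell markers at 1448 and 108 CPM. In B cells *Ccnd2* was at 0.165, with 3 UMIs in 9 FAKi cells, and 43.1% of all genes were past the fold.

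*Prlr* UMIs outside the β-cells were set against the insulin UMIs of the same class. If the *Ins1* and *Ins2* UMIs of a class had come with RNA of average β-cells of the same library, the vehicle endothelial cells would hold 320.5 *Prlr* UMIs, and 331 (observed-to-expected ratio 1.03, 0.925 to 1.15) were found. In the FAKi library 124 were expected and 123 found. The ratio was 1.07 (vehicle) and 1.22 (FAKi) in α-cells and 1.02 and 0.859 in ductal cells, with intervals that include 1. Over the 11 classes other than β-cells, the interval included the expected value in 5 with vehicle and 7 with FAKi, lay above it in 3 and 2, and below it in 3 and 2. The T cells lay highest among the classes above it in the vehicle library, at 1.74 (1.51 to 1.98), and acinar cluster 2 lowest, with 3 *Prlr* UMIs against 13.6 expected. The 216 *Prlr* UMIs of these T cells were in 8 of 168 droplets, and 166 of them were in 1 droplet. δ-cells lay below the expected number with vehicle, at 0.650 (0.490 to 0.846), and above it with FAKi, at 1.56 (1.20 to 2.002). Endothelial and immune cells together were at 1.22 (1.14 to 1.31) with vehicle and 1.19 (1.09 to 1.29) with FAKi. With vehicle they held 812 *Prlr* UMIs against 664 expected, and 166 of the 812 were in 1 T-cell droplet. With FAKi they held 540 against 455 expected, with up to 80 in 1 droplet. The intervals do not cover such clustering of UMIs in single droplets. The 28 T cells of the FAKi library had 597 CPM of *Prlr* beside 425630 CPM of insulin, a ratio of 1.28 (1.14 to 1.42). A *Prlr* UMI was found in 12 of these 28 droplets. In the vehicle library the tenth of droplets richest in insulin held 97.3% of the *Prlr* UMIs of endothelial cells, 99.2% of those of macrophages and 92.7% of those of ductal cells. It held 94.4% of those of T cells, 93.1% of those of fibroblasts, 81.5% of those of pericytes and 73.8% of those of acinar cluster 1. The share was lowest in the remaining classes, at 34.6% in α-cells, 50.9% in δ-cells, 50% in B cells and 66.7% in acinar cluster 2. With FAKi it was 14.0% in α-cells, 27.0% in δ-cells and 50% in T cells. The median droplet of every one of the 11 classes had 0 *Prlr* UMIs in both libraries. Whether those droplets held a β-cell beside another cell was not tested.

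Acinar cluster 1 held fewer *Prlr* UMIs than its insulin UMIs would bring. It had 65 *Prlr* UMIs with vehicle against 85.4 expected, a ratio of 0.761 (0.588 to 0.970), and 67 with FAKi against 189 expected, a ratio of 0.354 (0.275 to 0.450). *Ccnd2* there was at 1.08 (0.861 to 1.35) and 0.656 (0.556 to 0.768) times the expected number. *Socs2* (2 and 10 UMIs) and *Cish* (6 and 9 UMIs) had intervals that include the expected value, while *Ghr* was at 1.87 (1.02 to 3.14) and 1.24 (0.845 to 1.76). A *Prlr* UMI was found in 22 of 161 vehicle and 33 of 297 FAKi droplets of this cluster, at median depths of 1480 and 1140 UMIs. After thinning to 1000 UMIs the shares were 7.41% (3.61 to 13.2) and 6.73% (3.73 to 11.04), against 63.1% and 50.1% in β0 and 2.27% and 2.39% in endothelial and immune cells. Acinar cluster 2 had 3 and 15 *Prlr* UMIs. Outside acinar cluster 1 the other signalling genes lay far above the expected numbers in most classes, for example *Cish* in vehicle ductal cells at 49.3 and *Socs2* in vehicle endothelial cells at 35.1 times.

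**Figure D5:**
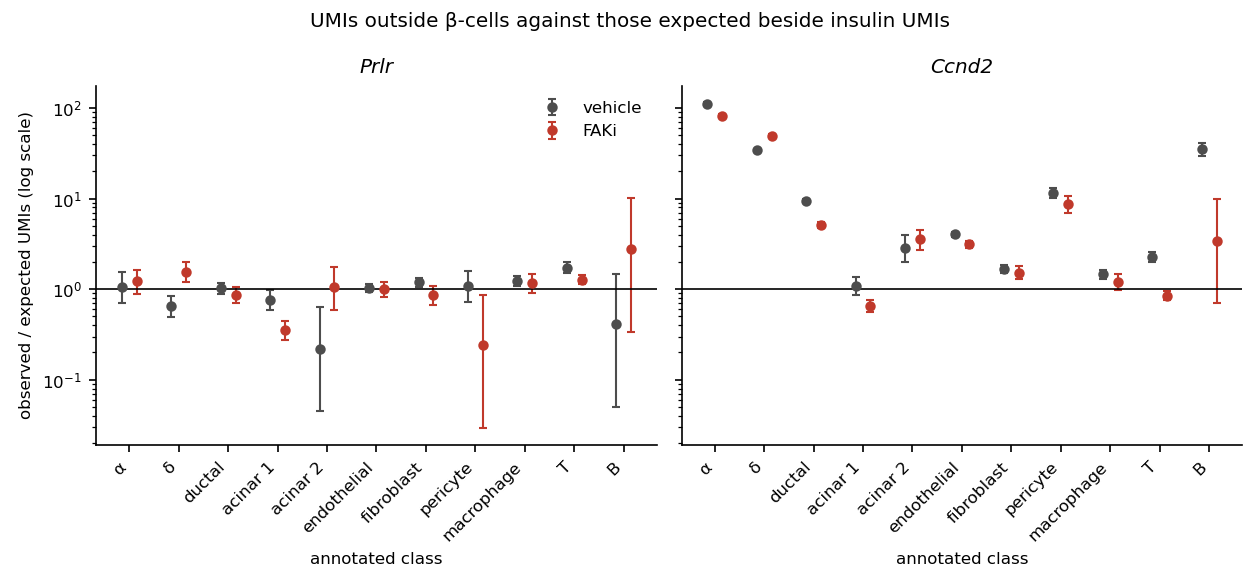
Observed over expected UMIs (y axis, log scale) of *Prlr* (left) and *Ccnd2* (right) in each class other than β-cells (x axis), for vehicle (grey) and FAKi (red) with Poisson 95% intervals, where 1 means the number that the insulin UMIs of the class would bring with β-cell RNA. *Prlr* lies near 1 in endothelial cells (1.03 and 0.995) and below 1 in acinar cluster 1 (0.761 and 0.354), and *Ccnd2* lies far above 1 in α-cells (111 and 82.6).

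The rest of the pathway was read from lists of genes. Of 27 genes of JAK-STAT signalling, 24 had enough UMIs in β-cells, 0 were past the fold upward and 2 downward, with a median log2 ratio of -0.08 against -0.04 over all genes. Of all genes 1.21% were past the fold upward and 3.1% downward. These were *Irs2*, an insulin receptor substrate, at 57.6 and 25.8 CPM (ratio 0.448, 0.415 to 0.484), and *Socs3*, another feedback inhibitor, at 151 and 99.9 CPM (0.662, 0.635 to 0.691). *Irs2* was past the fold in all 3 clusters, at 0.410, 0.519 and 0.665, and *Socs3* in β0 (0.657) but not in β1 (0.680) or β10 (0.793). *Jak2* was at 8.68 and 8.78 CPM and *Stat5b* at 19.98 and 18.4 CPM, with ratio intervals that include 1, while *Stat5a* was at 6.70 and 5.19 CPM (0.774, 0.636 to 0.941). *Stat3* (0.838), the adaptor *Shc1* (0.773) and the phosphatase gene *Ptpn6* (0.783) were also lower with FAKi, inside the fold over all β-cells, though *Shc1* was past it in β10 at 0.664 (0.498 to 0.883).

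Of 19 genes of cyclin D and its inhibitors, 15 had enough UMIs, 1 was past the fold upward and 0 downward, against 1.21% and 3.1% of all genes, with a median log2 ratio of -0.07. This was *Cdkn1c*, which encodes the cell-cycle inhibitor p57, at 49 vehicle and 110 FAKi UMIs (ratio 1.95, 1.38 to 2.78). *Ccnd1*, the cyclin D1 gene, was at 60.1 and 42.1 CPM (0.700, 0.655 to 0.748), and the inhibitor genes *Cdkn2c* (0.697), *Cdkn1a* (0.815), *Cdkn2d* (0.821) and *Cdkn1b* (1.19) were inside the fold. Of 9 genes of cell division 2 had enough UMIs, *Pcna* (0.904) and *Mcm2*, which was past the fold downward with 116 and 83 UMIs (0.620, 0.462 to 0.830). The other 7, *Mki67* and *Top2a* among them, had under 100 UMIs in the β-cells of both libraries together.

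Of 17 genes of serotonin synthesis, transport, breakdown and reception, 9 had enough UMIs and 0 were past the fold in either direction. Of all genes 1.21% were past it upward and 3.1% downward, so few among 9 would be. The median log2 ratio was 0.05 against -0.04 over all genes. *Ddc*, the enzyme after tryptophan hydroxylase, was at 244 and 194.6 CPM (0.798, 0.774 to 0.824). The vesicular transporter gene *Slc18a1* was at 0.725 (0.548 to 0.958), and the monoamine oxidase genes *Maoa* and *Maob* at 1.12 (0.897 to 1.39) and 1.05 (0.999 to 1.11). Of 4 ligand genes only *Igf2* had enough UMIs in β-cells, at 48 and 53 UMIs (0.957, 0.636 to 1.45), and the prolactin and growth hormone genes were not analysed here.

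The summed level of 9 early response genes (*Fos*, *Jun*, *Egr1* and others, chosen after values were seen) was also lower with FAKi in β0 (5125 CPM with vehicle, 3566 with FAKi) and β1 (3771 and 2463). In β10 it was 6750 and 6806 CPM, while the *Prlr* ratio there was 0.700. The part of these genes in the results was not tested.

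Over the 28 points formed by 14 classes (β-cells by cluster) in 2 libraries, the genes most like *Prlr* in log2(CPM + 1) were *Prss53* (Pearson r = 0.97), *Ins2* (0.95) and *Ins1* (0.95), of 14086 genes. The points share libraries and β-cell RNA, so r is a description. *Ghr* was most like *Plpp5* (0.92), *Ccnd2* most like *Gars* (0.93), *Socs2* most like *Slc12a7* (0.91) and *Cish* most like *Hes6* (0.89). *Tph2* had no gene above 0.76 (*A330008L17Rik*), and *Tph1* was too sparse to be compared.

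The study's methods name both sexes, but no group of male β0 cells was seen in either library, so the sexes could not be compared. *Xist*, which is transcribed from the inactive X chromosome of female cells, was found in 99.5% of vehicle and 99.9% of FAKi β0 cells. *Kdm5d*, a Y-linked gene, had 1 UMI in all cells, in a vehicle endothelial cell that also had *Xist*, and 3 other Y-linked genes were not analysed here.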

How the data were processed

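UMIs were counted by the authors with Cell Ranger against mm10, per the labels. Per the study's methods, Seurat set the limits of the cell filter, SCRAN normalized the values that scanorama integrated, and clusters came from Louvain partition of a neighbour graph. The deposited table holds raw counts, not normalized, and the deposited annotation gives each cell's library, class and cluster. It also gives the percent of mitochondrial counts, as computed by the authors. The label Control was read as the vehicle library. The 8 samples were read as 4 lanes of each library.

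UMIs were summed per class and library and divided by the total (CPM). Levels carry exact Poisson, shares Clopper-Pearson and ratios conditional binomial intervals. There were no tests. The fold was 1.5 in genes with at least 100 UMIs. The member rule covered all 7 genes, and list genes were named for the largest log2 ratios (pseudocount 1), up to a fixed number per list. The members and lists were chosen with earlier results of these data known. Positions are from GENCODE vM21 and promoters from RefSeq. The intervals were tested on simulated Poisson counts, which is what the intervals assume, so that check does not cover the spread between cells. Doublets called by scrublet (68 vehicle and 57 FAKi cells) were kept in the main values. The seed was 0, and the tools were scanpy 1.11.5, scipy 1.17.1, numpy 2.4.6 and pandas 2.3.3 under python 3.11.15. The vehicle library held 59514118 UMIs and the FAKi library 57836783.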

Additional observations from a re-analysis of the deposited data

Results flagged for a closer look

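*Cish* differed in opposite directions between classes: the FAKi-to-vehicle ratio was 1.64 in α-cells (73 vehicle and 190 FAKi UMIs) and 0.637 in endothelial cells (162 and 41 UMIs). Thinned to 5000 UMIs, the endothelial ratio was 0.732. The difference between the classes was not tested, because there was 1 library per condition. Classes with fewer than 50 cells in a library were not considered for this. The expected *Cish* UMIs from β-cell RNA were 1.13 and 2.66 in α-cells and 14.9 and 9.29 in endothelial cells. The summed early response genes were at 9806 (vehicle) and 12805 CPM (FAKi) in α-cells, and 11488 and 8584 CPM in endothelial cells. In β1 they were lower with FAKi (3771 and 2463 CPM), where the *Cish* ratio was 1.26. Their part in the *Cish* values was not tested.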

How the results depend on the processing

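The *Prlr* ratio over all β-cells stayed below 1 under every alternative, at 0.634 to 0.699, but its side of the 1.5-fold limit did not. It was 0.697 without the 20 most abundant genes in the total, 0.699 in cells under 5% mitochondrial counts and 0.634 in cells thinned to 5000 UMIs, where *Prlr* was the 1 member past the fold (4.08% of all genes). *Ccnd2* was at 0.988 without the 20 most abundant genes and 0.978 under 5% mitochondrial counts. In thinned cells *Ghr* was at 0.903, *Cish* at 0.979 and *Tph1* at 0.277. Under 5% mitochondrial counts 0 members were past the fold in β-cells, since *Tph2* (ratio 0.413) no longer had 100 UMIs (4.05% of all genes), and 0 in α-cells (4.75%). With a minimum of 20 UMIs 2 were (*Tph1* and *Tph2*), as in β0, and 1 in β1 (*Tph2*), where 9.89% (β), 9.82% (β0) and 11.4% (β1) of all genes were. *Prlr* was the 1 member past the fold in β0 by the mean of each cell's CPM (4.85% of all genes) and when thinned (4.57%), in β1 when thinned (5.19%), and in β10 by the mean (12.9%) and without called doublets (4.67%). α-cells also had 0 when thinned (4.78%, 2 members counted) and at 2-fold (0.832%), while the *Cish* ratio there was 1.46 to 1.99 under the alternatives. By the mean 1 member was past the fold in δ-cells (*Prlr*, higher, with 10.6% of all genes) and 2 in endothelial cells (*Socs2* and *Cish*, 12.1%), which also had 2 without doublets (*Prlr* and *Cish*, 9.03%) and 0 at 2-fold (2.69%). Thinned, endothelial cells had 1 of 3 counted, *Socs2* (9.74%), with *Cish* at 0.732. Without the 20 most abundant genes 1 was in ductal cells (*Ghr*, higher, 8.36%). For β10 over β0 the count was 0 at 2-fold with vehicle (3.39%) and with FAKi (3.83%), and with 20 UMIs 3 with FAKi (*Prlr* and *Tph1* lower, *Tph2* higher, 24.98% of all genes), where β1 over β0 had 1 (*Tph2*, 8.72%). Except where a value named here shows the cause, the cause was not tested. Of 448 member ratios under alternatives, 403 kept their direction and 45 did not, and no ratio past the fold turned its direction. Of 6 ratios in smaller classes, run under the same alternatives after seeing the data, that of *Prlr* in macrophages turned, to 1.09 by the mean and 1.00 under 5% mitochondrial counts, and was 0.505 when thinned. The other 5 kept theirs, with *Prlr* at 0.231 to 0.774 in acinar cluster 1 and 1.53 to 10.7 in T cells, and *Ccnd2* at 1.53 to 2.006 in fibroblasts, 1.43 to 3.26 in T cells and 0.0564 to 0.536 in B cells.

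With 1 library per condition, differences between mice and between libraries are not covered by any interval. The fold limit was not fitted to replicate spread. *Tph1* and *Tph2* rest on few UMIs. The split of cells by *Xist* and Y-linked genes could not be made at 1 or at 2 UMIs. No paired analysis was possible because the replicate numbers are sequencing lanes of 1 library each, and the table gives no lane for a cell.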
